A study of Mus musculus with 2 samples.

Results

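Effector CD8 T cells were examined here in droplet single-cell RNA sequencing of live CD45+ cells sorted from subcutaneous B16 melanomas, a transplantable mouse tumor line. Barcodes were kept where 200 or more genes were seen and mitochondrial genes held under 10% of the UMIs (unique molecular identifiers, each counting 1 captured transcript). Effector CD8 cells were then selected on their raw UMIs by 6 conditions. Cd8a and Cd8b1 together had at least 1 UMI, and Ccl5, Nkg7, Gzmk, Gzmb and Pdcd1 together at least 2. Foxp3 had 0, Lef1 and Dapl1 together 0, Lyz2 at most 1, and the cycling genes Mki67, Top2a, Birc5, Ccnb2 and Tpx2 together at most 1. The rule found 413 cells of 10801 kept barcodes, 287 in the shSdc1 library and 126 in the shRFP library. Since the cells were chosen by the UMIs of these genes, the levels of these genes are a description and support nothing further.

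The shSdc1 tumors grew from B16 cells carrying a short hairpin RNA against Sdc1, which encodes the heparan sulfate proteoglycan syndecan-1, and the shRFP tumors from cells carrying a control hairpin. A genotype label names the shSdc1 sample a Sdc1 knockout, while its title and the treatment protocol speak of hairpin-bearing tumor cells. In both groups the hosts were wild-type mice that received a vaccine of irradiated, GM-CSF-producing B16 cells, were injected with tumor cells 12 days later and gave their tumors after another 16 days. The tissue was digested for 15 min at 37 °C. Each group was 1 library from 6 pooled tumors, so no difference between the groups was tested. Intervals in brackets are at 95% and take in counting error alone. They leave out the spread of a gene's UMIs between cells and the spread between mice or libraries.

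CD8 T cells recognise peptides on MHC class I through the T cell receptor and kill the presenting cell by releasing perforin, which opens the membrane, and granzymes, which enter and trigger cell death. They also secrete interferon gamma and the chemokines Ccl3, Ccl4, Ccl5 and Xcl1, which draw in macrophages, T cells and cross-presenting dendritic cells. In tumors, antigen met again and again goes with sustained inhibitory receptors such as PD-1, Lag3 and Tim-3 (Havcr2), a state called exhaustion.

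The cells were shallow. They held 178268 UMIs in shSdc1 and 78930 in shRFP, with a median of 502 UMIs per cell (244 to 2728) in shSdc1 and 503.5 (235 to 1806) in shRFP. Mitochondrial genes made up a median of 1.59% of a cell's UMIs in shSdc1 and 1.89% in shRFP. The libraries shared 20 barcode sequences, which 2 shSdc1 cells and 0 shRFP cells carried, and none of these was an effector CD8 cell in both. Scrublet's automatic threshold marked 0 barcodes in shSdc1 and 1 in shRFP and had not worked. Of the barcodes ranked highest by its score, 7 in shSdc1 and 2 in shRFP were effector CD8 cells, and these were kept.

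Markers outside the rule fitted the label of a T cell, while Cd8 and effector genes are present by choice. Cd8a was seen in 183 of the 287 shSdc1 cells and 78 of the 126 shRFP cells, Cd8b1 in 170 and 75, and Cd4 in 0 and 0, which allows a share of up to 1.05% in shSdc1 and 2.38% in shRFP, taking 3 counts as the limit here and below. The other genes of the CD4 and regulatory T cell list were seen in 84 shSdc1 cells and 53 shRFP cells, with 159 and 98 UMIs (0.718 [0.555 to 0.934]). Most were of Ctla4, Tnfrsf4 and Ikzf2, which activated CD8 T cells can also express, and Cd40lg had 0 in both. Of these 3 measured genes, 2 were lower in shSdc1, Ikzf2 at 0.429 and Tnfrsf4 at 0.596. The 6 natural killer genes had 24 UMIs in 19 shSdc1 cells and 8 UMIs in 8 shRFP cells, of which 21 and 8 were of Eomes, a transcription factor that CD8 T cells share. Ncr1, Klrb1c, Klra4 or Klra8 were seen in 1 shSdc1 cell and 0 shRFP cells. The 4 gamma delta T cell genes were seen in 27 shSdc1 cells and 13 shRFP cells, mainly as Trgc2 (29 and 12 UMIs), and Trdc, the delta constant gene, had 0 UMIs in both. The 6 B cell genes had 27 UMIs in 21 shSdc1 cells and 14 UMIs in 10 shRFP cells. A Cd3d, Cd3e or Cd3g UMI was missing from 50 shSdc1 cells and 26 shRFP cells (17.4% and 20.6%). At this depth a missing UMI does not show that the transcript was absent. Melanoma genes had 0 UMIs in either library, which allows up to 16.8 counts per 1000000 UMIs (CPM) in shSdc1 and 38.0 CPM in shRFP. The 10 macrophage genes had 76 UMIs in 38 shSdc1 cells and 19 UMIs in 7 shRFP cells, 1.77-fold more per UMI in shSdc1 [1.06 to 3.10]. The 8 genes of MHC class II antigen presentation had 162 UMIs in 22 of 287 shSdc1 cells and 50 UMIs in 18 of 126 shRFP cells, and 3 of the 4 measured ones were higher in shSdc1. H2-Ab1 had 39 UMIs in shSdc1, 15 of them in 1 cell, against 4 in shRFP. The part of such transcripts in the differences below was not tested. Leaving out cells with a UMI of Cd4, C1qa, C1qb, C1qc, Apoe, Cd79a or H2-Aa, which removes only cells where one was seen, left 257 shSdc1 cells and 116 shRFP cells, where the ratios of the leading genes described below were 7.81 for Xcl1, 3.17 for Ly6c2, 3.08 for Itgb1, 0.407 for Prf1 and 0.496 for Ccl3.

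Cells close to the limits of the rule were common. The Cd8a and Cd8b1 sum was 1 in 159 shSdc1 cells and 69 shRFP cells, and the effector sum was 2 in 33 and 19, beside a median of 7 in shSdc1 and 6 in shRFP. Just outside, 28 shSdc1 barcodes and 24 shRFP barcodes met every other condition with an effector sum of 1. The Cd8 condition alone kept out 572 shSdc1 barcodes and 314 shRFP barcodes, and the cycling condition alone 76 and 28.

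Effector CD8 cells were more frequent among the immune cells of shSdc1 tumors. They made up 5.15% of kept barcodes in shSdc1 [4.58 to 5.76] and 2.41% in shRFP [2.01 to 2.86], a ratio of 2.13 [1.73 to 2.65]. With every barcode thinned to 300 UMIs before the rule was applied the shares were 3.40% (171 of 5029) in shSdc1 and 1.35% (65 of 4822) in shRFP. The T lineage, barcodes with at least 2 UMIs of Cd3d, Cd3e, Cd3g, Trac, Trbc1 and Trbc2 together and at most 1 of Lyz2, was also larger, at 25.0% of kept barcodes in shSdc1 and 15.0% in shRFP. Within it effector CD8 cells were 16.9% in shSdc1 [15.0 to 19.0] and 13.6% in shRFP [11.3 to 16.2]. That ratio of 1.24 had an interval that includes 1 [0.984 to 1.58], and it was 0.897 among barcodes with at least 500 genes. Among T lineage barcodes with a Cd8a or Cd8b1 UMI, 236 of 393 in shSdc1 (60.1%) and 107 of 232 in shRFP (46.1%) met the whole rule. The cycling counterparts, with at least 2 UMIs of cycling genes, were 1.36% of kept barcodes in shSdc1 and 0.536% in shRFP. NK cells (1.90% in shSdc1, 0.593% in shRFP) and regulatory T cells (2.21% and 1.24%), by the gates given below, were larger shares in shSdc1 too. Naive-like T cells, with Lef1 or Dapl1, went the other way at 0.879% in shSdc1 and 1.45% in shRFP, as did the macrophage gate at 41.1% and 47.0%. All of these are shares of what the CD45 sort kept, and cell numbers per tumor are not known.

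**Figure D1:**
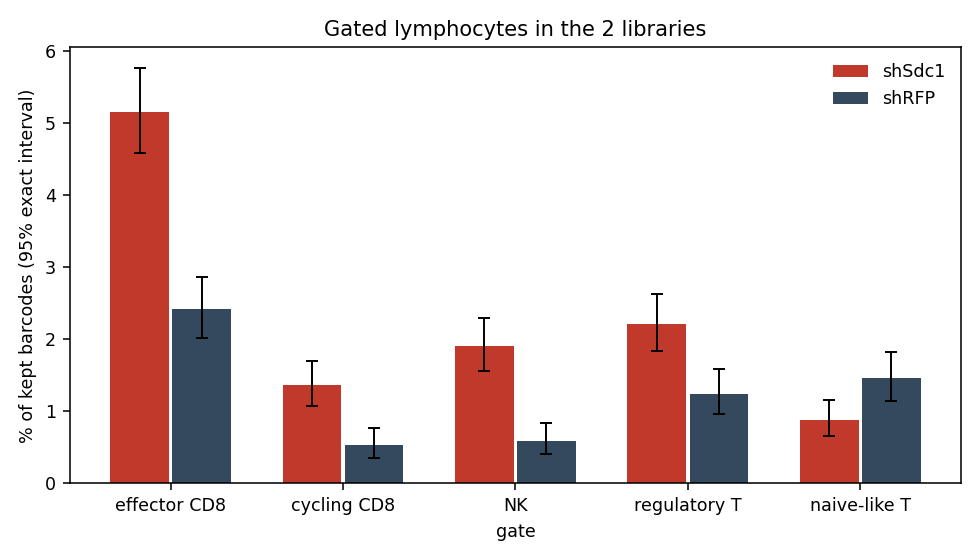
Share of kept barcodes (y axis, %) in 5 gates of lymphocytes, with shSdc1 in red and shRFP in dark blue; bars are single libraries and lines the exact 95% interval. Effector CD8 cells stood at 5.15% in shSdc1 and 2.41% in shRFP, and the naive-like gate is the one with the larger bar in shRFP.

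For levels, the UMIs of each gene were added up over the effector CD8 cells of a library and expressed as CPM. Of 2247 genes with 20 or more UMIs over the 2 libraries, 380 (16.9%) were at least 1.5-fold higher in shSdc1 and 330 (14.7%) at least 1.5-fold lower, and the median log2 ratio was 0.02. Most of these genes have few UMIs. Of the 798 genes with at least 50 UMIs, 64 (8.02%) were higher and 63 (7.89%) lower. Scaled by TMM, 488 genes were higher and 226 lower, and scaled by DESeq2 size factors 538 and 202. These scalings raised every log2 ratio by 0.105 and 0.166, so medians below lying between -0.16 and 0 change sign under one of them. Counts of listed genes are best read against the 16.9% and 14.7% of all genes. The genes described are the 15 higher and 15 lower ones by the interval bound nearest to 1, beside members of lists of T cell functions.

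Xcl1 and Ly6c2 led the genes that were higher. Xcl1 (mm10 chromosome 1, 164931644 to 164935527, minus strand) encodes the chemokine of the receptor on cross-presenting dendritic cells. It had 76 UMIs in 31 shSdc1 cells, 23 of them in 1 cell, and 4 UMIs in 4 shRFP cells. That is 426 CPM in shSdc1 and 50.7 CPM in shRFP, a ratio of 8.41 [3.15 to 31.7], or 7.81 without the cell holding most of its UMIs in each library. At 300 UMIs per cell 7.14% of shSdc1 cells [4.35 to 10.9] and 2.50% of shRFP cells [0.519 to 7.13] had an Xcl1 UMI, with intervals that overlap, beside at most 0.0907% of macrophages. The direction was not stable. Where all kept barcodes were thinned before the rule, the cells that then met it had 7 Xcl1 UMIs in each library, a ratio of 0.380. That choice can take in barcodes that fail the rule at full depth, as the 7 UMIs in shRFP against the 4 above show. Ccl1, another chemokine, had 42 UMIs in 9 shSdc1 cells against 3 UMIs in 1 shRFP cell, and its direction also turned under that thinning, to 0.507. Xcl1 and Ccl1 were seen together in 5 shSdc1 cells and 0 shRFP cells.

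Ly6c2 (chromosome 15, 75108158 to 75111970, minus strand) encodes the surface protein Ly6C, carried by many antigen-experienced CD8 T cells and by monocytes. It had 107 UMIs in 73 of 287 shSdc1 cells, at most 5 in any of them, against 13 UMIs in 6 of 126 shRFP cells. The level was 600.2 CPM in shSdc1 and 165 CPM in shRFP, a ratio of 3.64 [2.04 to 7.07]. At 300 UMIs per cell, 17.3% of shSdc1 cells [12.9 to 22.4] and 2.50% of shRFP cells [0.519 to 7.13] had a UMI, and these intervals do not overlap. The macrophage gate (at least 5 UMIs of C1qa, C1qb, C1qc, Apoe and Lyz2 together, none of Cd3), which can hold monocytes, had one in 4.04% in shSdc1 and 5.83% in shRFP, so the shRFP share was not above the level in that gate. Regulatory T cells had one in 2 of 102 in shSdc1 and 0 of 54 in shRFP (up to 5.56%). NK cells had one in 0 of 88 in shSdc1 (up to 3.41%) and 0 of 21 in shRFP (up to 14.3%), and naive-like T cells in 8 of 42 and 8 of 64. Median depths before thinning were 502 and 503.5 UMIs in the effector CD8 cells and 746 and 825 in macrophages. The ratio lay between 2.27 and 14.4 over 14 alternatives.

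Itgb1, Myh9 and Lars2 were also among the 15 higher genes. Itgb1, the beta-1 integrin chain, had 415 CPM in shSdc1 and 152 CPM in shRFP (2.73 [1.47 to 5.52]), in 52 and 11 cells, and Myh9, the non-muscle myosin heavy chain, 752 and 317 CPM (2.37 [1.54 to 3.80]). Lars2, a mitochondrial leucyl-tRNA synthetase, had 623 CPM in shSdc1 and 228 CPM in shRFP (2.73 [1.65 to 4.78]), but it was also 1.65-fold higher in macrophages. The others of the 15 were Epsti1 (2.80), Pcna (2.70), Smdt1 (3.04), Ndufb7 (2.58), Crip1 (1.65), Arpc5 (1.69), Ncl (1.64), Supt4a (2.31), Hspd1 (2.07) and Rinl (2.32). Epsti1 is an interferon-induced gene, Pcna the clamp of the DNA polymerase, and Smdt1 and Ndufb7 belong to the mitochondrial calcium uniporter and to complex I. Ndufb7 turned to 0.977 under thinning before the rule.

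Perforin and Ccl3 led the genes that were lower. Prf1 (chromosome 10, 61297833 to 61304680, plus strand), which encodes perforin, had 49 UMIs in 32 shSdc1 cells and 54 UMIs in 30 shRFP cells. Its level was 275 CPM in shSdc1 and 684 CPM in shRFP, a ratio of 0.402 [0.267 to 0.603]. At 300 UMIs per cell 7.14% of shSdc1 cells [4.35 to 10.9] and 15.0% of shRFP cells [9.14 to 22.7] had a Prf1 UMI, with intervals that overlap. Of macrophages 0.0454% in shSdc1 and 0% in shRFP (up to 0.124%) had one. The Prf1 ratio lay between 0.353 and 0.512 over 14 alternatives. No cell held more than 5 Prf1 UMIs in either library.

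Ccl3 (chromosome 11, 83647844 to 83649355, minus strand), a chemokine that T cells and macrophages make on activation, had 132 UMIs in 47 shSdc1 cells and 122 UMIs in 36 shRFP cells. The level was 740.5 CPM in shSdc1 and 1546 CPM in shRFP, a ratio of 0.479 [0.372 to 0.618]. Macrophages showed nearly the same ratio, 0.505, and nearly the same shares at 300 UMIs per cell, 11.6% in shSdc1 and 22.4% in shRFP, against 12.4% and 24.2% of effector CD8 cells. Among other lymphocytes at that depth, 3 of 102 regulatory T cells in shSdc1 and 0 of 54 in shRFP (up to 5.56%) had a Ccl3 UMI. The counts were 0 of 42 (up to 7.14%) and 1 of 64 for naive-like T cells, and 6 of 88 and 1 of 21 for NK cells. Cycling CD8 cells had one in 11 of 76 and 7 of 28. Whether free RNA of other cells added to Ccl3 was not tested. Its neighbour Ccl4 (83662584 to 83664683, plus strand) stood at 2182 CPM in shSdc1 and 2229.8 CPM in shRFP (0.979 [0.817 to 1.18]).

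Tnfrsf9, the costimulatory receptor 4-1BB that marks recent T cell receptor engagement, had 55 UMIs in 37 shSdc1 cells and 47 UMIs in 26 shRFP cells, or 309 CPM in shSdc1 and 595 CPM in shRFP (0.518 [0.345 to 0.782]). Bhlhe40, a transcription factor of cytokine-producing T cells, had 421 CPM in shSdc1 and 773 CPM in shRFP (0.544 [0.383 to 0.776]), with a ratio of 0.517 in macrophages. Ikzf2, which encodes Helios, had 31 UMIs in 19 shSdc1 cells and 32 UMIs in 24 shRFP cells (0.429 [0.253 to 0.726]), but 1.52 under thinning before the rule. The others of the 15 were Hspa1a (0.480), Vamp8 (0.443), Akap13 (0.505), Snx3 (0.470), Cdk6 (0.489), Hnrnph1 (0.491), Mapre1 (0.490), Tra2b (0.514), Vps37b (0.599) and Ctss (0.511). Akap13 turned to 1.08 under that thinning.

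**Figure D2:**
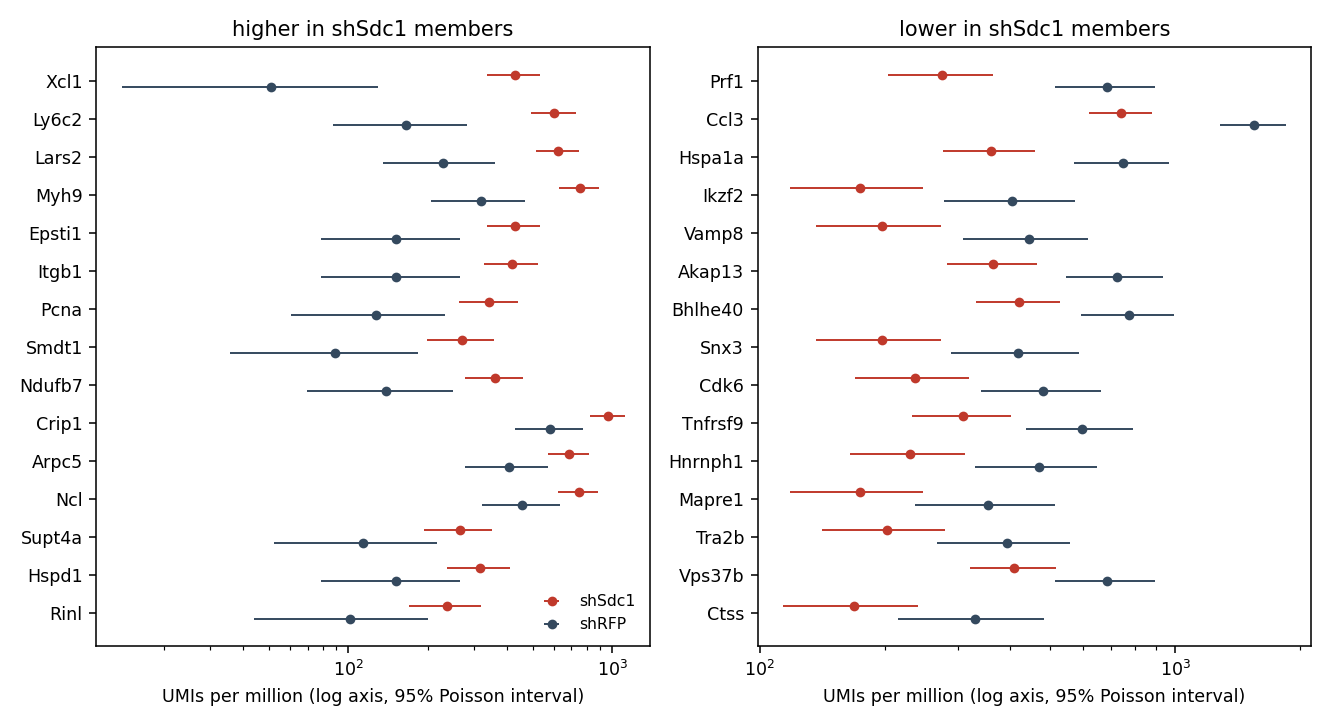
Level of the 15 genes highest and the 15 lowest in shSdc1 effector CD8 cells by the rule of the text (x axis, CPM on a log axis; shSdc1 red and above, shRFP dark blue and below), with exact 95% Poisson intervals of single libraries. Xcl1 shows the widest gap, 426 CPM in shSdc1 and 50.7 CPM in shRFP, and Ccl3 the highest level among the lower genes.

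The value of Hspa1a is uncertain, since it has a near copy and reads may be split between them. Hspa1a and Hspa1b both encode the inducible chaperone Hsp70 and are neighbours on chromosome 17. Hspa1a had 359 CPM in shSdc1 and 747 CPM in shRFP, while Hspa1b had 522 CPM in shSdc1 and 507 CPM in shRFP (1.03 [0.703 to 1.53]). The 2 genes together had a ratio of 0.702 [0.543 to 0.912], and Hspa1a alone turned to 1.47 among barcodes with at least 500 genes. In macrophages the ratios were 0.425 for Hspa1a and 0.452 for Hspa1b. The 250 bases before their start sites, from RefSeq on GRCm38.p6 and the minus strand (chr17:34972157-34972406 for Hspa1a and chr17:34959239-34959488 for Hspa1b), are shown because they differ at few bases, 247 of 250 being identical. Capitals mark the letters GAANNTTC, part of the heat shock element, which start 104 bases before the start site in both.
Hspa1a: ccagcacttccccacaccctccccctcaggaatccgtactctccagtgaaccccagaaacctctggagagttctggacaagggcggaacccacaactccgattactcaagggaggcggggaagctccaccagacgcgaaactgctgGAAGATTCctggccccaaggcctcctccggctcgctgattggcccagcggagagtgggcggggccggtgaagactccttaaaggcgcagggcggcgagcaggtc
Hspa1b: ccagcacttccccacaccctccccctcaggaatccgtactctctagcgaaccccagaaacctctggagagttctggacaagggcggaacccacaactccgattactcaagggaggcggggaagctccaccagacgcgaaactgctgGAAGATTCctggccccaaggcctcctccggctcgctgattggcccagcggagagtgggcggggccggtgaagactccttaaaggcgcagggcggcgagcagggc
Searched on both strands, those letters stood in 6.69% of 32851 promoter windows of that length, and in 6 of the 14 chaperone genes with a RefSeq promoter (42.9%, beside 7.73% of all genes). Such a match is a description of the letters only.

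T cell receptor chains were close in level between the libraries except for the constant beta genes, which differed in opposite directions. Trbc1 had 191 UMIs in 97 shSdc1 cells and 166 UMIs in 59 shRFP cells, 1071 CPM in shSdc1 and 2103 CPM in shRFP (0.509 [0.412 to 0.631]). Trbc2 had 340 UMIs in 167 shSdc1 cells and 97 UMIs in 68 shRFP cells, 1907 and 1229 CPM (1.55 [1.24 to 1.97]). Their sum had a ratio of 0.894 [0.770 to 1.04]. A T cell uses the constant gene that its rearrangement joined, and 110 shSdc1 cells and 37 shRFP cells had Trbc2 UMIs only, against 40 and 28 with Trbc1 UMIs only. Both genes were seen in 57 shSdc1 cells and 31 shRFP cells, and the genes are close copies, so reads may be split between them. Variable segments had 6 UMIs in shSdc1 and 1 in shRFP, too few to describe clones. Cd3d, Cd3e, Cd3g and Trac had ratios of 1.18, 0.772, 0.925 and 0.820. Of 15 measured genes of T cell receptor signalling 5 were at least 1.5-fold higher and 0 lower, and the list's median log2 ratio of 0.31 was -0.23 under thinning before the rule. The 5 were the kinase Fyn (1.88), the adaptor Lcp2 (2.21), Cd6 (1.84), Sla2 (2.66) and Ubash3a (1.77), the last 2 being dampers of signalling, and each of these intervals includes 1.

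Among 10 measured genes of cytotoxic granules 1 was higher and 4 were lower, and the median log2 ratio was -0.35. Beside Prf1 the lower ones were Cst7 (0.611), a cathepsin inhibitor, and the granzyme inhibitors Serpinb6b (0.487) and Serpinb9 (0.627), whose intervals include 1. Srgn, the granule proteoglycan, had 1060.2 CPM in shSdc1 and 1077 CPM in shRFP. Gzmc was higher at 4.28, with 29 UMIs in 4 shSdc1 cells and 3 UMIs in 3 shRFP cells, and 12 of its UMIs were in 1 cell. The gate genes Gzmb, Gzmk and Nkg7 had ratios of 0.928, 0.830 and 1.03, as a description. Secreted factors were mixed, with Xcl1 and Ccl1 higher, Ccl3 lower, and Ltb (1.06) and Ifng in between. Ifng had 86 UMIs in 47 shSdc1 cells and 55 UMIs in 28 shRFP cells (0.692 [0.488 to 0.990]), and its ratio was 1.53 among cells with at least 2 Cd8 UMIs.

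The trafficking receptors past 1.5-fold were all higher. Of 4 measured, 2 were higher and 0 lower, and the median log2 ratio was 0.85, with a range of 0.01 (at least 2 Cd8 UMIs) to 1.02 over 13 alternatives. Ccr2, the receptor for monocyte-drawing chemokines, had 38 UMIs in 34 shSdc1 cells and 5 UMIs in 5 shRFP cells (3.36 [1.32 to 11.0]), while it was lower in shSdc1 macrophages (0.586). Cxcr4, the receptor of Cxcl12, stood at 2.21 [0.832 to 7.40]. Cxcr3, the receptor of interferon-induced chemokines, and Cxcr6, a receptor of tissue-resident T cells, had ratios of 1.48 and 0.894. Of 9 measured integrins and adhesion genes 3 were higher and 2 lower, with a median of 0.56 that lay between 0.47 and 0.73 over 16 alternatives. With Itgb1 the higher ones were Itgal (1.65), a chain of LFA-1, and Itgb7 (1.58). Itgav, the alpha-V chain of integrins that activate TGF-beta, was lower at 0.390 [0.209 to 0.720], with 22 UMIs in 18 shSdc1 cells and 25 UMIs in 19 shRFP cells.

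Inhibitory receptors showed no common direction. Of 5 measured, 1 was higher and 1 lower, at a median log2 ratio of -0.18. Ctla4 had 438 CPM in shSdc1 and 456 CPM in shRFP, Lag3 297 and 405 CPM (0.733 [0.464 to 1.18]), and Havcr2 101 and 177 CPM (0.569 [0.268 to 1.24]). Cd160 was higher, with 27 UMIs in 24 shSdc1 cells and 4 UMIs in 4 shRFP cells (2.99 [1.04 to 11.8]), but 0.760 under thinning before the rule. Pdcd1, a gate gene, had a ratio of 0.895. Of 8 costimulatory receptors 2 were higher (Cd226 at 1.86 and Cd48, at the limit of 1.5) and 3 lower (Tnfrsf9, Tnfrsf4 at 0.596, Cd28 at 0.652). Among 9 cytokine receptors Tgfbr2, a receptor chain for TGF-beta, was higher at 3.84 [1.18 to 19.8] with 26 UMIs in 19 shSdc1 cells and 3 UMIs in 3 shRFP cells. Il27ra was lower at 0.620, and Il2rb, shared by the receptors of interleukins 2 and 15, had a ratio of 1.47 [1.03 to 2.15].

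Transcription factors of effector and exhausted cells held 5 higher and 3 lower genes of 18 measured, with a median log2 ratio of -0.13. Tbx21, which encodes T-bet, had 22 UMIs in 21 shSdc1 cells and 4 UMIs in 4 shRFP cells (2.44 [0.827 to 9.72]), Zeb2 stood at 2.95 and Ikzf3 at 2.15, and all 3 intervals include 1. Tbx21 turned to 0.760 under thinning before the rule. Tox, a factor of exhausted cells, had 325 CPM in shSdc1 and 355 CPM in shRFP, and Eomes 118 and 101 CPM. Of 5 naive and memory genes the quiescence factors Klf2 (0.443) and Foxp1 (0.498) were lower and Ly6c2 was higher. Klf2 turned to 1.90 under that thinning. NK receptors had 2 of 6 higher (Klrc2 at 1.77, Fcer1g at 2.66) and 0 lower. As a sum this list had 1475 CPM in shSdc1 and 1470 CPM in shRFP, against 4365 and 3851 CPM in the macrophage gate. Whether macrophage transcripts added to its ratios was not tested.

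Interferon, stress and metabolic lists had medians between -0.18 and 0.12. Type I interferon response genes had 3 of 10 higher (Ifi209 at 2.66, Ly6a at 1.58, Ddx58 at 1.51) and 1 lower (Zbp1 at 0.620). Interferon gamma response genes had 1 of 6 higher and 2 lower, and the lowest, Irgm1, had 6 UMIs in shSdc1 and 15 in shRFP, and 11 UMIs of it in shRFP were in 1 cell. MHC class I genes had 1 of 13 higher (Tap2 at 1.90) and 0 lower, and immediate early genes 0 of 23 higher and 3 lower (Dusp1 at 0.590, Zfp36 at 0.615, Rgs2 at 0.617). Heat shock chaperones had 2 of 13 higher and 1 lower, and glycolysis genes 0 of 11 either way, although Ldha (0.677 [0.525 to 0.875]) and Pkm (0.670 [0.497 to 0.907]) had intervals below 1. Oxidative phosphorylation genes had 2 of 15 higher and 0 lower, and proliferation genes 2 of 15 higher and 2 lower. Of 80 measured ribosomal protein genes 2 were higher and 1 lower. The 13 mitochondrial transcripts together were lower in shSdc1, at a ratio of 0.825 [0.777 to 0.877].

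**Figure D3:**
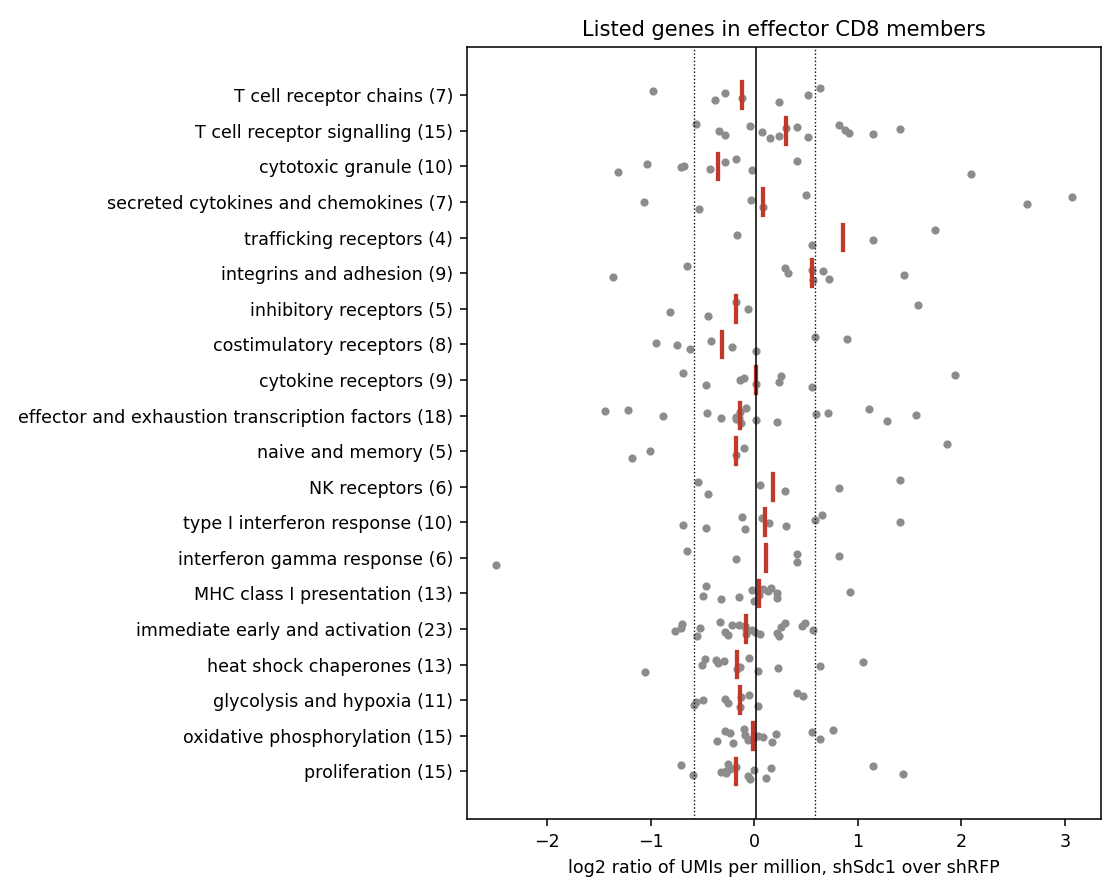
Log2 ratio of CPM in effector CD8 cells, shSdc1 over shRFP (x axis), for each listed gene with at least 20 UMIs (grey points; the number of genes stands beside the list) and the list median (red line). Dotted lines mark 1.5-fold and the solid line the median of all genes, 0.02; trafficking receptors (0.85) and integrins (0.56) lie farthest to the right and cytotoxic granule genes (-0.35) farthest to the left.

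Effector CD8 cells were compared by inhibitory receptor and memory genes, and most cells of each library fell in neither of the sets below. Cells with a UMI of Havcr2, Lag3, Tigit or Entpd1 and none of the memory genes Il7r, Tcf7 and Slamf6 were 55 in shSdc1 and 38 in shRFP, and the reverse held for 19 and 8. The first set was larger and deeper, with 43271 UMIs against 10831 in shSdc1, 29758 against 3762 in shRFP, and median UMIs per cell of 687 against 445 in shSdc1 and 704.5 against 443 in shRFP. Ccl3 had 62 UMIs in the inhibitory receptor set and 0 in the memory set in shSdc1, and 86 and 0 in shRFP. Ifng had 36 and 0 in shSdc1 and 32 and 0 in shRFP, Tnfrsf9 29 and 0 in both libraries, and Rgs16, a brake on chemokine receptor signalling, 24 and 0 in shSdc1 and 20 and 0 in shRFP. Prf1 had 23 UMIs and 1 in shSdc1 and 32 and 0 in shRFP. Per UMI of each set, the lower bounds of the ratio in shSdc1 and in shRFP were 4.08 and 2.88 for Ccl3, 2.32 and 1.03 for Ifng, 1.85 and 0.932 for Tnfrsf9, 1.51 and 0.624 for Rgs16, and 0.935 and 1.03 for Prf1, so the intervals of the last 3 include 1 in a library. Ccl4, Pgk1, Ran, Slc25a3 and Stat3 completed the 10 genes that ranked highest on that side by the weaker of the 2 libraries' ratios. Of these, Slc25a3 and Stat3 had intervals that include 1 in both libraries, and Pgk1 and Ran in shRFP. Malat1, Ptprc, H3f3a, Tpt1, Tmsb10, Eef1b2, Arhgdib, Fau, Arpc2 and Rhoa were the 10 on the memory side. The intervals of Ptprc, H3f3a, Tpt1, Tmsb10, Eef1b2, Arhgdib, Arpc2 and Rhoa include 1 in shRFP. All of these but Ptprc and Tmsb10 include 1 in shSdc1 as well. Of 135 genes ranked, 80 (59.3%) went the same way in both libraries.

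Cells with such an inhibitory receptor UMI were a smaller part of the shSdc1 cells. They were 59 of 287 in shSdc1 (20.6% [16.0 to 25.7]) and 39 of 126 in shRFP (31.0% [23.02 to 39.8]). At 300 UMIs per cell the shares were 9.77% in shSdc1 [6.48 to 14.0] and 19.2% in shRFP [12.6 to 27.4], beside 3.63% and 3.51% of macrophages. The intervals overlap. The lower Prf1 was present on both sides of this split. Its ratio was 0.485 [0.273 to 0.850] in cells with an inhibitory receptor UMI (507 CPM in shSdc1, 1045 CPM in shRFP) and 0.419 [0.227 to 0.780] in cells without one (191 and 455 CPM). Ccl3 had 1309.6 CPM in shSdc1 and 2809 CPM in shRFP in cells with one (0.466 [0.331 to 0.654]), against 535 and 745 CPM in cells without (0.718 [0.473 to 1.10]). Ly6c2 lay mostly in cells without one, with 98 UMIs in shSdc1 and 13 in shRFP (2.78 [1.55 to 5.41]), against 9 and 0 in cells with one. Xcl1 was higher in shSdc1 on both sides, with 23 UMIs in shSdc1 against 3 in shRFP in cells with one and 53 against 1 in cells without. Whether these ratios differ between the sides was not tested.

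**Figure D4:**
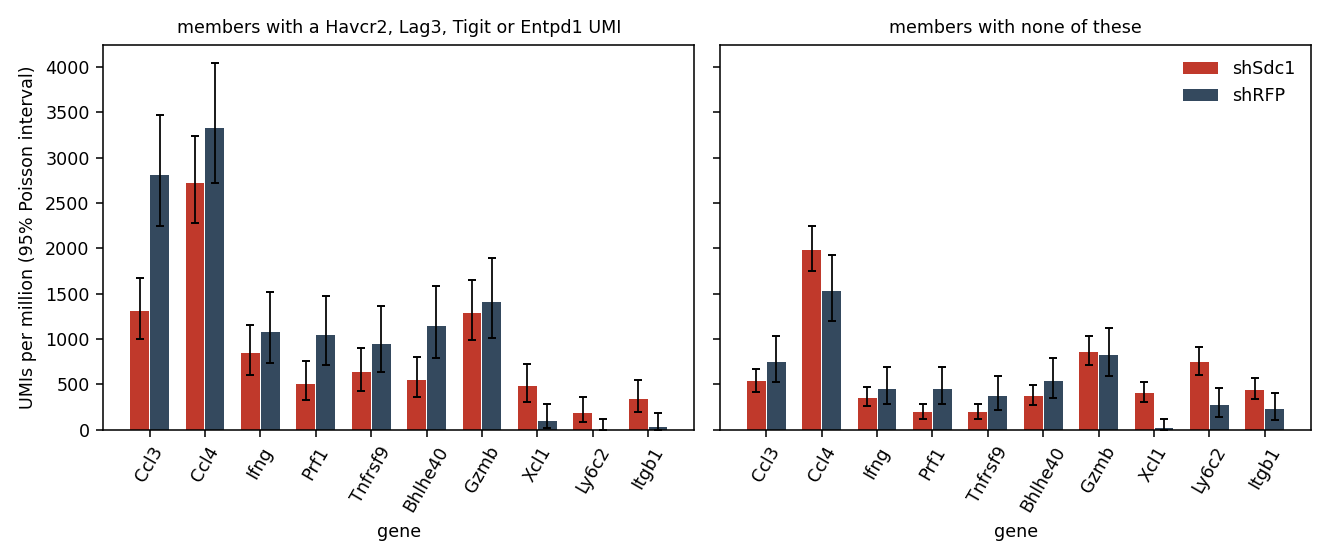
Level of 10 genes (y axis, CPM from 0) in effector CD8 cells with a UMI of Havcr2, Lag3, Tigit or Entpd1 (left) and without one (right), shSdc1 in red and shRFP in dark blue, with exact 95% Poisson intervals of single libraries. The Ccl3 bars reach their own highest value in shRFP cells on the left, at 2809 CPM against 1309.6 CPM in shSdc1. Ly6c2 is found mainly on the right, at 749 CPM in shSdc1 and 269 CPM in shRFP.

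Effector CD8 cells were also compared by granzyme use. Gzmb was seen without Gzmk in 76 shSdc1 cells and 23 shRFP cells, and Gzmk without Gzmb in 24 and 9. Both were seen in 15 shSdc1 cells and 11 shRFP cells, and most cells of each library had neither. The Gzmb set was deeper, with median UMIs per cell of 656.5 against 418 in shSdc1 and 756 against 592 in shRFP. Tnfrsf9 had 548 CPM in the Gzmb set against 80.4 CPM in the Gzmk set in shSdc1 (6.82 [1.14 to 278], 31 and 1 UMIs), and 1252 CPM against 565 CPM in shRFP (2.22 [0.673 to 11.5], 24 and 3 UMIs). Ccl3, Ldha, Mif, Ran, Npm1, Hmgb1, Hsp90ab1, Tpm3 and Cd3e were the others of its 10 leading genes. Btg1, Malat1, Fau, Naca, Clic1, Cd3g, Cd52, S100a10, Chchd2 and Ostf1 ranked highest on the Gzmk side. All but Malat1 and Fau in shSdc1 had intervals that include 1, and Cd52 had ratios of 0.839 [0.580 to 1.24] in shSdc1 and 0.859 [0.411 to 1.96] in shRFP. Btg1, an antiproliferative gene of resting lymphocytes, had 1061 CPM in the Gzmb set against 1768 CPM in the Gzmk set in shSdc1, and 835 CPM against 1883 CPM in shRFP. Of 107 genes ranked, 63 (58.9%) went the same way in both libraries.

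The ratios of the leading genes in other gates varied by gene. The NK gate takes barcodes with Ncr1, Klrb1c, Klra4 or Klra8 and no Cd3 or Cd8 UMI, and the regulatory T gate those with Foxp3 and no Cd8 UMI. Ly6c2 was also higher in cycling CD8 cells (2.76) and Itgb1 too (2.003), while Itgb1 had ratios of 0.739 in NK cells and 1.14 in macrophages. Xcl1 went the other way in cycling CD8 cells, with 411 CPM in shSdc1 and 767 CPM in shRFP (0.536), and had a ratio of 1.24 in NK cells, which express it at 1106 and 893 CPM. Prf1 was lower in NK cells as well, with 388 CPM in shSdc1 and 825 CPM in shRFP (0.471), but rested on 20 and 12 UMIs there, and had a ratio of 1.38 in cycling CD8 cells. Tnfrsf9 was lower in NK cells (0.257) and had ratios of 0.708 in regulatory T cells and 1.29 in cycling CD8 cells. Of the genes plotted by gate, Ccl3 (0.505), Hspa1a (0.425), Bhlhe40 (0.517) and Lars2 (1.65) were past 1.5-fold the same way in macrophages. None of these differences between gates was tested.

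**Figure D5:**
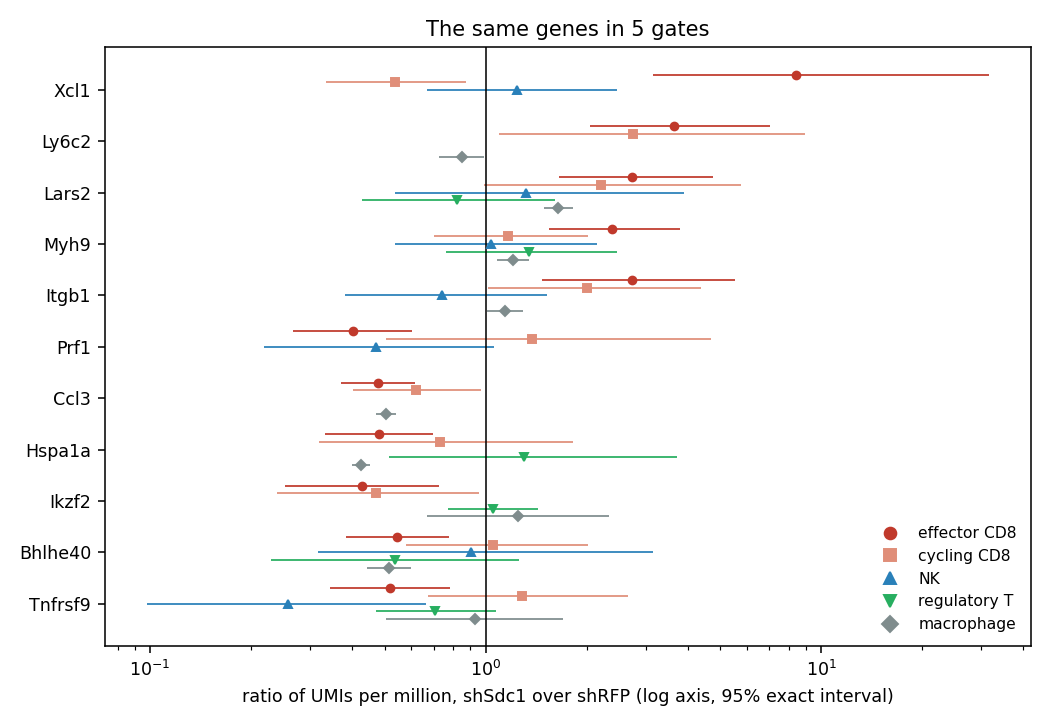
Ratio of CPM, shSdc1 over shRFP (x axis, log), for 11 genes in effector CD8, cycling CD8, NK, regulatory T and macrophage gates, drawn where a gate held at least 20 UMIs, with exact 95% intervals of single libraries. Effector CD8 cells (red circles) lie apart from the 2 other gates drawn for Xcl1 (8.41), while macrophages (grey) coincide with them for Ccl3 (0.479 and 0.505).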

How the data were processed

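Unnormalized UMI counts were deposited, produced by Cell Ranger 6.1.1 per the file headers and, per the submitters' processing notes, on mm10; no source used here names the annotation release. The tables held 5902 barcodes with 4370725 UMIs (shSdc1) and 5786 barcodes with 4255928 UMIs (shRFP), of which 5576 and 5225 were kept. The cells, gene lists and splits were chosen with earlier results of these data known; a few genes are not reported here and were left out of the lists and of the genes that define a split. UMIs were summed per library and given as CPM, with exact Poisson intervals, and ratios with exact conditional binomial intervals. The ratio intervals were tried only on simulated Poisson counts, which cannot show the effect of UMIs spread unevenly between cells. Shares have Clopper-Pearson intervals. UMIs at 300 per cell were drawn without replacement, leaving out 21 shSdc1 and 6 shRFP cells. Genes were named among those with at least 50 UMIs and 1.5-fold by the interval bound nearest to 1, the 15 highest and lowest. Left out were mitochondrial, ribosomal, hemoglobin, immunoglobulin, T cell receptor and gate genes, unnamed models and repeated symbols. Of sex-linked genes only Xist, Tsix, Ddx3y, Eif2s3y, Kdm5d and Uty were left out. In splits the 10 genes on each side with the larger of the weaker ratios were named. Scanpy 1.11.5 ran Scrublet. EdgeR 4.0.16 and DESeq2 1.42.0 supplied scaling only. Positions came from GENCODE M21 (99.8% of features). Alternatives changed the cell filter, gate, depth, doublets, scaling and count minimum.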

Additional observations from a re-analysis of the deposited data

Results flagged for a closer look

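For 6 of the leading genes the ratio of CPM, shSdc1 over shRFP, lay past 1.5-fold in the opposite direction in another gate. These differences were not tested, and the other gates hold few cells. Xcl1, at 8.41 in effector CD8 cells, had 4 UMIs in shSdc1 and 30 in shRFP in the naive-like T gate, a ratio of 0.197. Ikzf2, at 0.429, had 18 UMIs in shSdc1 and 8 in shRFP there, a ratio of 3.32. Supt4a, at 2.31, had a ratio of 0.633 in the same gate. Arpc5, at 1.69, had a ratio of 0.661 in regulatory T cells, and Ctss, at 0.511, had 1.61. Snx3, at 0.470, had a ratio of 1.79 in NK cells.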

How the results depend on the processing

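The larger share of effector CD8 cells in shSdc1 kept its direction under 9 alternatives, with ratios of 2.03 to 2.52, while the ratio within the T lineage was 0.897 at 500 genes per barcode. Genes past 1.5-fold, higher and lower, were 165 and 125 at 500 genes per barcode, 204 and 161 with at least 2 Cd8 UMIs, 77 and 72 with barcodes thinned before the rule, 64 and 63 with at least 50 UMIs and 977 and 799 with at least 10, and 202 were lower under DESeq2 scaling. Fewer UMIs and cells enter the first 3. Of the 30 genes named by rule 25 kept their direction under all 14 alternatives and 14 of them stayed past 1.5-fold. Hspa1a turned to 1.47 at 500 genes per barcode. With all kept barcodes thinned before the rule, 171 shSdc1 and 65 shRFP cells of 300 UMIs each met it. They need not be among the cells described above, since a barcode can pass after losing a UMI that had kept it out. In this changed set Xcl1 turned to 0.380, Ndufb7 to 0.977, Ikzf2 to 1.52, Akap13 to 1.08 and Ccl1 to 0.507. Cd160 turned to 0.760, Tbx21 to 0.760, Klf2 to 1.90 and H2-Ab1 to 0.950. The cause was not tested. No paired analysis was possible because each group is 1 library. The spread between mice, tumors and libraries is not known, and depth limits genes with few UMIs to ratios with wide intervals.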
